A study of Mus musculus with 6 samples.

Results

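The circadian clock genes described here were 9 transcripts of the molecular clock, Per1, Per2, Per3, Ciart, Nr1d1, Nr1d2, Dbp, Arntl and Clock, chosen by gene symbol from the 54532 genes of a hippocampal expression table. All 9 were measured in all 6 libraries, and all 9 passed the filter of a mean of at least 0.1 FPKM that left 20952 genes for testing. FPKM is the number of sequenced fragments per kilobase of gene, scaled to a total for the library, so that levels can be compared between genes. The libraries were made from the hippocampus of 3 wild-type mice (WT1, WT2 and WT3) and 3 TG mice (TG1, TG2 and TG3). TG mice carried the G82R/L85P variant of Slc1a2, the gene of the astrocytic glutamate transporter GLT-1, which was knocked into the endogenous gene by CRISPR/Cas9 on a C57BL/6N background, and WT animals were littermates without it. The change is in the germline and so is not limited to 1 cell type. Zygosity, age, sex and the time of day at which tissue was taken are not given for the sequenced mice in the sources used here, so that neither the phase of the clock at collection nor its match between the groups is known. No source names pooling, and each library is treated as 1 mouse.

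The mammalian clock is a transcriptional feedback loop. CLOCK and BMAL1, the product of Arntl, bind E-box sequences and activate the Period and Cryptochrome genes, Nr1d1, Nr1d2, Dbp and Ciart. The repressors among the products of these genes accumulate and shut the activators down. PER proteins repress together with CRY, CIART (also called CHRONO) represses CLOCK and BMAL1 directly, and the nuclear receptors REV-ERB alpha and beta, encoded by Nr1d1 and Nr1d2, repress Arntl through ROR elements. DBP activates genes with a D-box and is a classic clock output. The hippocampus holds such a clock below the master pacemaker of the suprachiasmatic nucleus, and Per1 is in addition known as a gene that neuronal activity and glucocorticoids can induce.

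Letter matches to motifs of this loop lie near the start sites of several members. They are shown for the 4 members with the clearest match in the RefSeq promoter table (GRCm38.p6). The table had an entry for 8 of the 9 members, each a window from 250 bases before to 50 bases after the start of transcription. The motifs searched for on both strands were the E-box CACGTG, the E-prime box CACGTT, the cAMP response element TGACGTCA, the D-box TTATGTAA and the core of the ROR element TAGGTCA, and none of them contains another. The following stretches run 5′ to 3′ on the strand of the gene, with the matches in capitals.
Ciart, chr3:95882259-95882358, minus strand: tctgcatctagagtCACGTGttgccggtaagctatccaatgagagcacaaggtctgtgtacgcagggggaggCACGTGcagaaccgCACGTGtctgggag
Per1, chr11:69098739-69098828, plus strand: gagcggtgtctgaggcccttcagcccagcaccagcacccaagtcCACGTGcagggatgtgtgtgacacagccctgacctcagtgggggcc
Per3, chr4:151044791-151044890, minus strand: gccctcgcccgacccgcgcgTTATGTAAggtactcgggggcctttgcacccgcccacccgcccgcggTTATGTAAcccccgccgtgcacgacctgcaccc
Nr1d1, chr11:98775378-98775452, minus strand: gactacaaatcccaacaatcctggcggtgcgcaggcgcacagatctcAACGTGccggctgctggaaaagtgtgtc

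Ciart had 3 E-boxes, which began at -116, -58 and -44 relative to the start, and Per1 had 1 at -166 before the first of its 2 start sites. Over all 32851 promoter windows, 7.15% held an E-box. Per3 had 2 D-boxes, at -205 and -158, a motif found in 0.938% of windows. Nr1d1 had 1 E-prime box at -28, written AACGTG in the stretch because it lies on the other strand, and 4.68% of windows held that motif. The ROR core, present in 2.61% of windows, was found 31 bases after the second start of Arntl. No member window held the cAMP response element, which 1.79% of all windows did, and the windows of Nr1d2, Dbp and Clock held none of the 5 motifs in these letters. These matches describe letters in a short window and not binding.

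Between 16081281 and 18751057 fragments were counted on genes per library. The totals behind the FPKM scaling, recovered from the values, were close to these counts but not equal to them, at 15824455 to 18722180. With these totals, 3 fragments on a gene of 1 kb equalled 0.160 to 0.190 FPKM. Slc1a2 itself was at 202, 200 and 177 FPKM in WT1 to WT3, compared with 222, 207 and 217 in TG1 to TG3 (log2 fold change 0.16, SE 0.09, limma adjusted p = 0.789), which checks the level but not the base changes. The 10 hippocampal neuron markers summed to between 333 and 409 FPKM in all 6 libraries, with the dentate gene Prox1 at 9.81 to 14.4. Of the suprachiasmatic markers, Nms, Six6 and Lhx1 were below the filter and the other 4 passed it, with Vip at 4.46 to 7.41 FPKM and Avp at 0.986 to 5.79. Avp rested on 9 to 54 fragments per library and Prok2 on 2 to 9, and Rorb is also in the list of neighbouring regions. Whether suprachiasmatic tissue was present was not tested. At an unadjusted p under 0.05, 1 of 7 markers of neighbouring regions was higher (Cux2, 2.26 to 2.79 FPKM in WT and 3.24 to 4.03 in TG), as was 1 of 9 glial and vascular markers (Flt1, 4.86 to 5.70 and 5.94 to 6.65). Of all genes tested, 3.13% were higher at that threshold. The oligodendrocyte marker Mog lay lower in every TG library, as did 5.71% of all genes tested. It was at 22.1 to 26.9 FPKM in WT and 15.6 to 22.0 in TG, with a gap of 0.099 FPKM (log2 fold change -0.34, limma unadjusted p = 0.0510). Mbp, the other oligodendrocyte marker of the list, overlapped, at 222 to 288 FPKM in WT and 196 to 287 in TG (log2 fold change -0.07, limma unadjusted p = 0.699). Xist was near 0 and the Y-linked Ddx3y was between 10.6 and 12.3 FPKM in every library, a male pattern in all 6. TG1 and TG2 stood apart from the rest by transcripts of choroid plexus, the epithelium that makes cerebrospinal fluid. Its 15 markers, none at 0 in any library, summed to 83.4 to 112 FPKM in the WT libraries, and to 1348, 4215 and 93.2 in TG1 to TG3. The most abundant of them, Ttr, was at 49.8 to 73.0 in the WT libraries and at 1168, 3705 and 57.7 in TG1 to TG3. In whole tissue, fewer cells of a type and less RNA per cell cannot be told apart.

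All 9 clock genes were clearly expressed. Averaged over the 6 libraries, Nr1d1 was highest at 25.4 FPKM, followed by Dbp at 20.1, Nr1d2 at 19.6 and Per1 at 17.8, and these 4 overlapped with their neighbours over libraries. A gap then separated Per1, whose lowest library was at 14.1, from Per2 at 7.25 on average. Per2 overlapped with Clock at 6.74, while the lowest library of Clock, at 5.84, lay just above the highest of Ciart, at 5.77. Ciart at 5.31 and Per3 at 4.76 overlapped, and Arntl was lowest at 2.91, with no library above the lowest of Per3. The least covered member was Ciart with 174 to 241 fragments per library, where counting error alone is at most 7.58%, and the other members had at least 332.

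**Figure D1:**
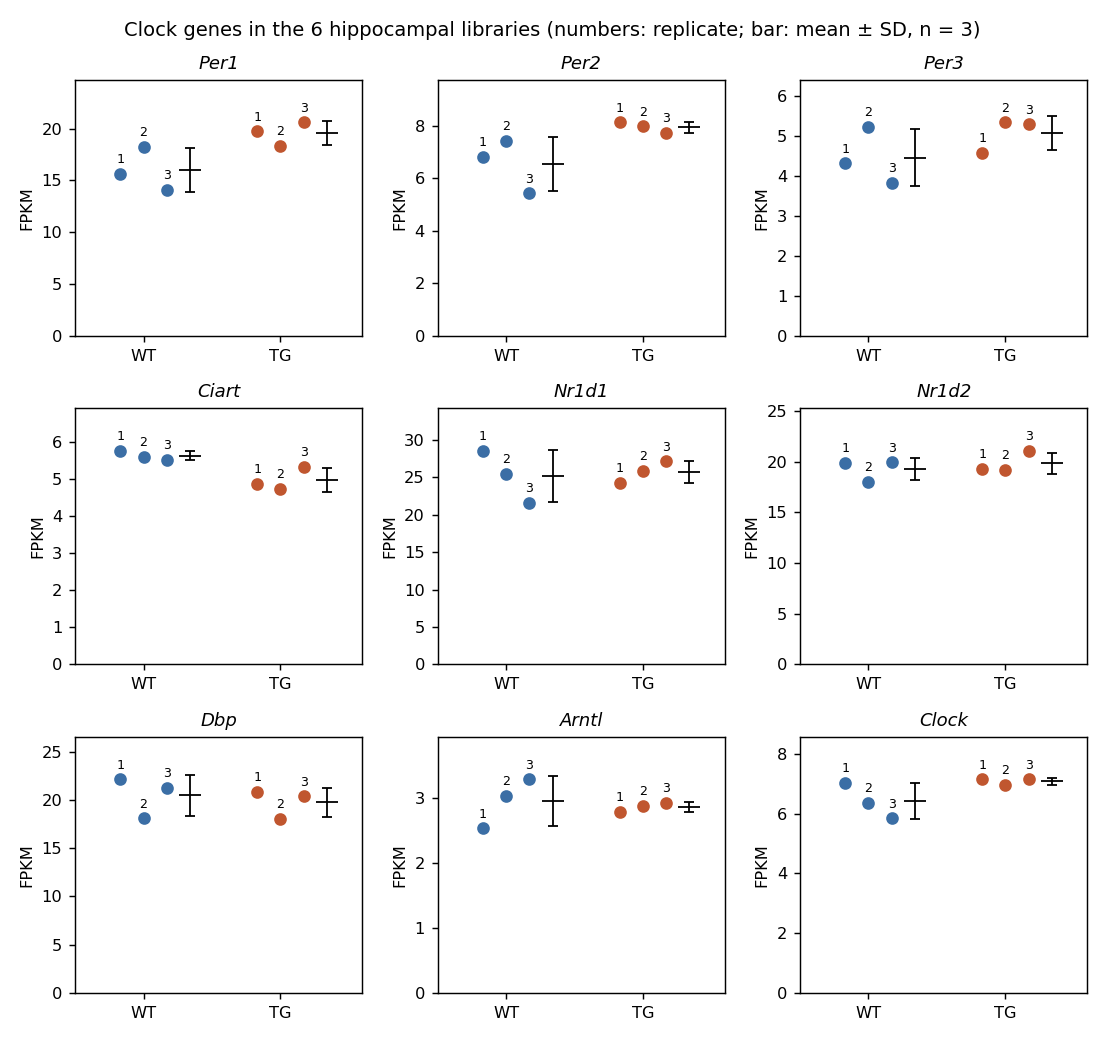
FPKM of the 9 clock genes (vertical axis, from 0) in the WT (blue) and TG (orange) libraries, where each point is 1 library labelled by its replicate number and the black bar is the mean ± SD (n = 3). Per1 and Per2 lie higher and Ciart lower in every TG library than in any WT library, while the other 6 genes overlap.

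The comparison of WT with TG mice asked whether hippocampal clock transcripts differed with the variant. Per1 and Per2, the main repressors of the Period family, were higher in TG mice, by 1.22-fold and 1.21-fold, and Ciart, a repressor of the same activators, was lower at 0.884 times the WT level. None of these differences passed the test once p-values were adjusted over all 20952 genes, since the smallest adjusted p among the 9 members was 0.786. At an unadjusted p under 0.05, 2 of 9 members were higher and 0 were lower, against 3.13% and 2.78% of all genes tested, and 0 members were called after adjustment, as were 0.00955% of all genes. By the libraries alone, 2 members were higher in every TG library than in any WT library, as were 6.35% of all genes, and 1 was lower in every TG library, as were 5.71%. Limma-voom on the reads recovered from the FPKM values likewise called 0 members after adjustment, with unadjusted p of 0.0149 for Per1 and 0.0296 for Per2. When values were rescaled to TPM, Per2 alone kept groups that did not overlap, while Per1 and Ciart kept their direction. The median log2 fold change of the members was 0.04, beside -0.00 for all genes.

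Per1 (ENSMUSG00000020893, GRCm38 chr11:69095217-69109960, plus strand) was at 15.6, 18.3 and 14.1 FPKM in WT1 to WT3, compared with 19.7, 18.3 and 20.6 in TG1 to TG3. WT2 and TG2 nearly touched, and only 0.0342 FPKM separated the groups. The means were 16.0 ± 2.11 and 19.5 ± 1.16 (SD, n = 3 each), which gave 0.29 as the log2 fold change (SE 0.11, 95% interval 0.05 to 0.54, limma unadjusted p = 0.0258 and adjusted p = 0.786). The spread of Per1 between mice was 13.2% in WT, well above its counting error of at most 2.59%. The gap between the groups was small beside that counting error, so the order of WT2 and TG2 is not resolved. The unadjusted p passed 0.05 only in part of the leave-one-out fits, being 0.0779 without WT1, 0.0697 without WT3, 0.0765 without TG1 and 0.0939 without TG3.

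Per2 (ENSMUSG00000055866, chr1:91415982-91459324, minus strand), whose protein works in the same repressor complex, was at 6.82, 7.43 and 5.43 FPKM in WT1 to WT3, compared with 8.13, 7.97 and 7.72 in TG1 to TG3. The TG libraries lay close together, 0.293 FPKM above WT2, while the WT libraries were spread, with WT3 lowest. The means were 6.56 ± 1.03 and 7.94 ± 0.202, a log2 fold change of 0.28 (SE 0.12, 95% interval 0.00 to 0.57, limma unadjusted p = 0.0492 and adjusted p = 0.786). Leaving out WT3, the log2 fold change of Per2 was 0.16 (limma unadjusted p = 0.0725), and the p also exceeded 0.05 without WT1, TG1, TG2 or TG3, with values from 0.0760 to 0.129.

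Per3 (ENSMUSG00000028957, chr4:151003652-151044665, minus strand), the family member that the core rhythm depends on least, was at 4.31, 5.23 and 3.82 FPKM in WT1 to WT3, compared with 4.58, 5.34 and 5.28 in TG1 to TG3. The groups overlapped, as WT2 exceeded TG1. Its log2 fold change was 0.19 (SE 0.13, 95% interval -0.12 to 0.50, limma unadjusted p = 0.191), and 0.31 without WT2 (limma unadjusted p = 0.0387). In all 3 Period genes WT3 was the lowest of the 6 libraries and WT2 the highest of the WT libraries. Summed over the family, FPKM was 26.8, 30.9 and 23.4 in WT1 to WT3, compared with 32.5, 31.6 and 33.6 in TG1 to TG3.

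Ciart (ENSMUSG00000038550, chr3:95878503-95882251, minus strand) lay the other way. Of its stretches of 50 bases, 11.9% also occur in Gm9176, which was at no more than 0.113 FPKM. It was at 5.77, 5.61 and 5.53 FPKM in WT1 to WT3, compared with 4.86, 4.74 and 5.34 in TG1 to TG3. WT libraries were tightly grouped, TG1 and TG2 were lower, and TG3 was 0.189 FPKM below the lowest WT library. The spread of Ciart in WT, 2.13%, was smaller than its counting error of up to 7.58%. The tight grouping is therefore no measure of how the mice vary, and the gap to TG3 is small beside that error. The means were 5.64 ± 0.120 and 4.98 ± 0.317, a log2 fold change of -0.18 (SE 0.08, 95% interval -0.37 to 0.02, limma unadjusted p = 0.0706 and adjusted p = 0.786). Without TG3 the log2 fold change was -0.23 (limma unadjusted p = 0.0371). TG1 and TG2 were also the libraries with choroid plexus genes. With TG1 and TG2 left out, an alternative added after seeing the data in which TG3 alone is assumed to vary as the WT libraries do, Ciart differed by -0.08 (limma unadjusted p = 0.431), and with a choroid plexus score as covariate by -0.08 (limma unadjusted p = 0.512). The same pair of settings gave 0.37 (limma unadjusted p = 0.117) and 0.38 (limma unadjusted p = 0.0482) for Per1, and 0.24 (limma unadjusted p = 0.336) and 0.24 (limma unadjusted p = 0.238) for Per2. The part of choroid plexus tissue in these differences was not tested, since 1 TG library remains in the one setting and the score is unequal between the groups in the other.

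The REV-ERB genes did not pass the test. Nr1d1 (ENSMUSG00000020889, chr11:98767932-98775333, minus strand) was at 28.5, 25.4 and 21.5 FPKM in WT1 to WT3, compared with 24.2, 25.8 and 27.1 in TG1 to TG3. WT1 was the highest and WT3 the lowest of all 6, so that the WT range enclosed the TG range. The log2 fold change was 0.04 (95% interval -0.22 to 0.29, limma unadjusted p = 0.730). Nr1d1 shares 263 exonic bases, 8.55% of its exons, with Thra on the opposite strand, the thyroid hormone receptor gene at 214 to 247 FPKM. Nr1d2 (ENSMUSG00000021775, chr14:18204054-18239127, minus strand) was at 19.9, 18.0 and 19.9 FPKM in WT1 to WT3, compared with 19.3, 19.2 and 21.1 in TG1 to TG3. Its log2 fold change was 0.04 (95% interval -0.13 to 0.22, limma unadjusted p = 0.582), among the narrower intervals of the members.

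Dbp (ENSMUSG00000059824, chr7:45705088-45710203, plus strand), the output gene with a strong daily swing in most tissues, was at 22.1, 18.1 and 21.3 FPKM in WT1 to WT3, compared with 20.8, 18.0 and 20.3 in TG1 to TG3. The groups overlapped nearly completely, with a log2 fold change of -0.05 (95% interval -0.28 to 0.18, limma unadjusted p = 0.620). Dbp shares 539 exonic bases, 18.0% of its exons, with Sphk2 on the opposite strand, a sphingosine kinase gene at 6.28 to 7.15 FPKM. Whether reads were counted by strand is not stated for these values, so reads from these shared stretches cannot be assigned to either gene of the pair.

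On the activator side, Arntl (ENSMUSG00000055116, chr7:113207465-113314126, plus strand) was at 2.54, 3.04 and 3.29 FPKM in WT1 to WT3, compared with 2.79, 2.88 and 2.94 in TG1 to TG3. The TG libraries lay inside the WT range, with a log2 fold change of -0.03 (95% interval -0.32 to 0.25, limma unadjusted p = 0.789). Clock (ENSMUSG00000029238, chr5:76209868-76304792, minus strand) was at 7.04, 6.35 and 5.84 FPKM in WT1 to WT3, compared with 7.14, 6.95 and 7.14 in TG1 to TG3. WT1 lay between the TG libraries, and the log2 fold change was 0.14 (95% interval -0.06 to 0.35, limma unadjusted p = 0.147), or 0.21 without WT1 (limma unadjusted p = 0.0419). As single genes, an exact two-sided permutation test of 3 against 3 libraries, which cannot go below 0.1, gave 0.1 for Per1, Per2 and Ciart, 0.2 for Per3 and Clock, and 0.5 to 0.8 for the other 4.

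**Figure D2:**
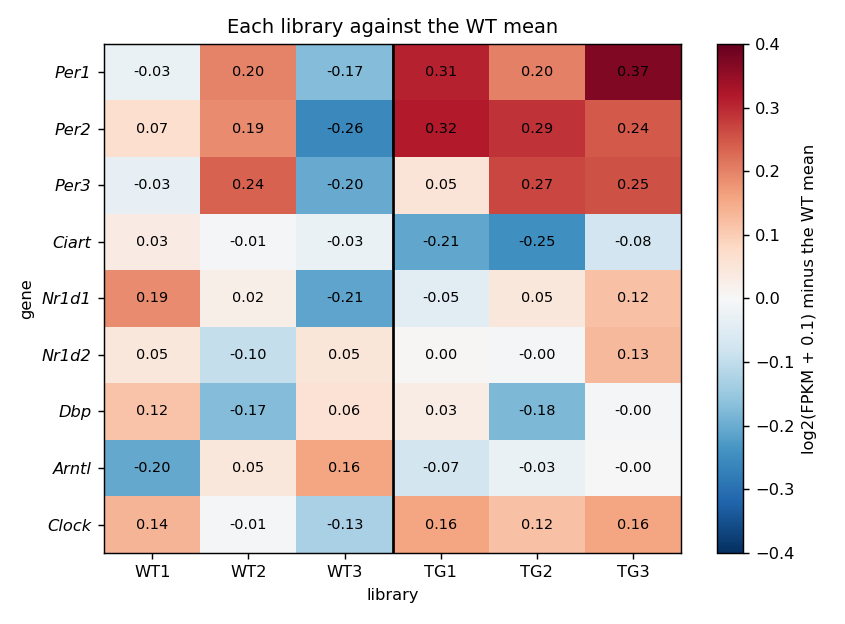
Log2(FPKM + 0.1) of each clock gene (rows) in each library (columns) minus the mean of the 3 WT libraries, red where higher and blue where lower. WT3 is at -0.26 to -0.13 in Per1, Per2, Per3, Nr1d1 and Clock and at 0.16 in Arntl, and TG1 and TG2 are at -0.21 and -0.25 in Ciart.

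The members also differed in how they varied within a group. In WT mice, WT3 was lowest in Per1, Per2, Per3, Nr1d1 and Clock and highest in Arntl. The WT order of Nr1d1, WT1 over WT2 over WT3, was the reverse of that of Arntl. In the TG mice both genes instead rose together from TG1 to TG3, at 24.2, 25.8 and 27.1 FPKM for Nr1d1 and 2.79, 2.88 and 2.94 for Arntl. Nr1d2 was lowest in WT2. The ratio of Nr1d1 to Arntl ran from 11.2 in WT1 over 8.36 in WT2 to 6.54 in WT3, while TG1 to TG3 were at 8.67, 8.94 and 9.23. On the log2 scale, 8 of the 9 members had the larger SD in WT, Ciart being the exception, beside 57.2% of all genes tested. The median SD of the members was 0.19 in WT and 0.08 in TG, and for all genes with a mean of 1 to 100 FPKM it was 0.14 and 0.11. In TG, spreads of 2.55% for Per2, 2.61% for Arntl and 1.59% for Clock were below counting errors of up to 4.10%, 5.49% and 2.66%. Spreads this small do not show that the TG mice varied less. These spreads come from 3 mice per group and were not tested, and the ratios were chosen after values were seen.

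Set against each other, the members that lay apart gave a ratio of Per1 to Ciart of 2.71, 3.26 and 2.55 in WT1 to WT3, compared with 4.06, 3.86 and 3.86 in TG1 to TG3. The ratio of Per2 to Ciart was 1.18, 1.32 and 0.982 in the WT libraries, compared with 1.67, 1.68 and 1.45 in the TG libraries. Both ratios combine genes already seen to differ and are given as a description. The ratio of Dbp to Arntl, an output over an activator with opposite phases in most tissues, was 8.72, 5.95 and 6.45 in the WT libraries, compared with 7.46, 6.25 and 6.93 in the TG libraries, which overlapped.

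**Figure D3:**
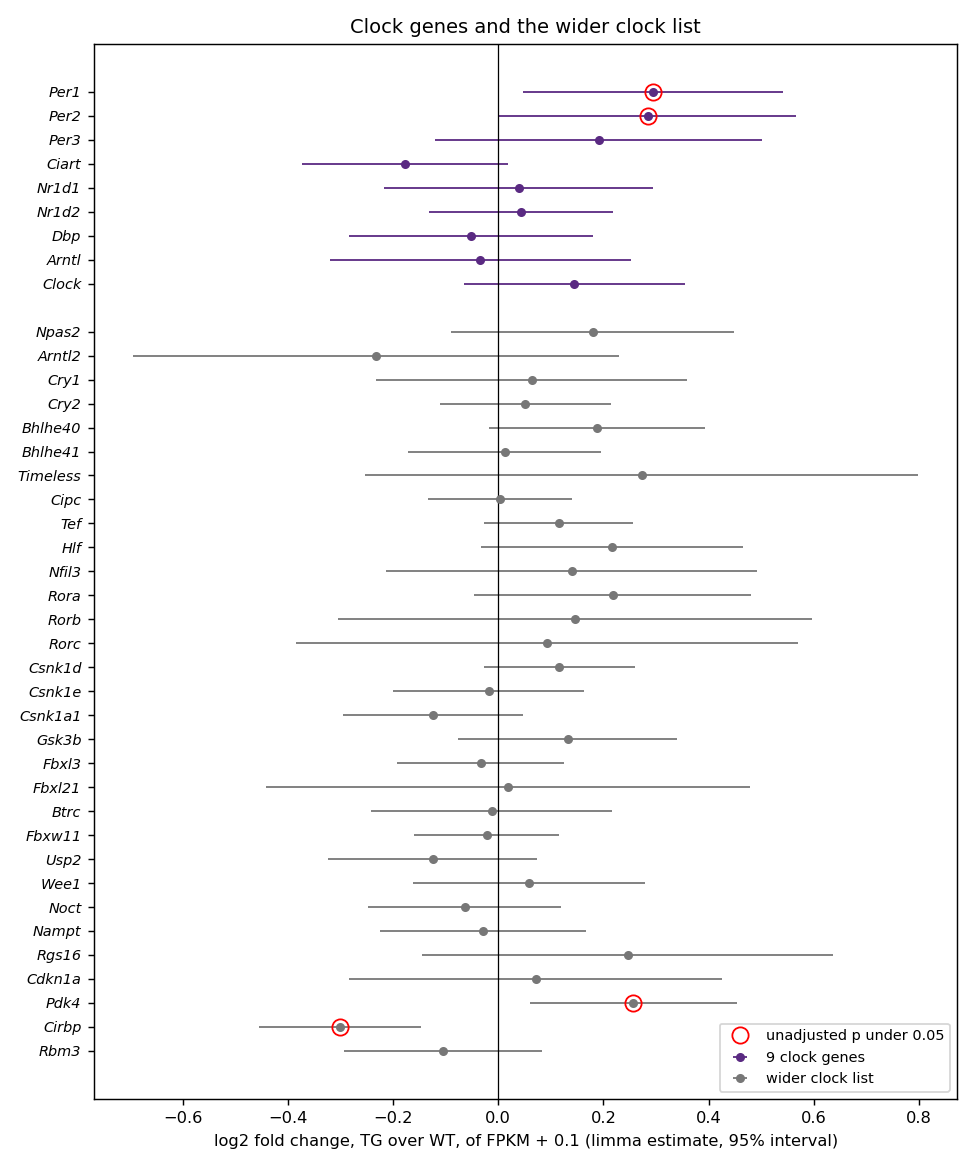
Limma log2 fold changes of TG over WT on log2(FPKM + 0.1) (horizontal axis) with 95% intervals for the 9 clock genes (purple) and the 31 genes of the wider clock list (grey), with red rings where the unadjusted p was under 0.05. Per1, Per2 and Pdk4 lie to the right of 0 and Cirbp to the left, and none of them had an adjusted p under 0.05.

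Beyond the 9 members, 31 further clock genes were examined by role, and all 31 were tested. At an unadjusted p under 0.05, 1 was higher and 1 was lower, against 3.13% and 2.78% of all genes, and 0 passed after adjustment, with a smallest adjusted p of 0.786. In every TG library against every WT library, 3 were higher and 2 were lower, against 6.35% and 5.71% of all genes. The lower gene that passed the unadjusted test was Cirbp, a cold-inducible RNA-binding protein whose transcript follows body temperature and which is known to influence the amplitude of Clock. It was at 32.8, 30.2 and 32.7 FPKM in WT1 to WT3, compared with 25.0, 26.5 and 26.0 in TG1 to TG3. All TG libraries lay at least 3.67 FPKM below all WT libraries, in TG3 as in TG1 and TG2. The log2 fold change was -0.30 (SE 0.07, 95% interval -0.45 to -0.15, limma unadjusted p = 0.00226 and adjusted p = 0.786), which ranked it 51st of all genes. Rbm3, the other cold-inducible RNA-binding protein of the list, was at 20.6, 18.5 and 21.3 in WT1 to WT3, compared with 17.6, 19.0 and 19.5 in TG1 to TG3, with groups that overlapped (log2 fold change -0.10, limma unadjusted p = 0.232).

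Pdk4, a kinase that restrains pyruvate oxidation and a rhythmic output gene, was at 3.31, 3.40 and 3.33 FPKM in WT1 to WT3, compared with 3.94, 4.07 and 4.05 in TG1 to TG3. The groups were 0.539 FPKM apart, with a log2 fold change of 0.26 (SE 0.08, 95% interval 0.06 to 0.45, limma unadjusted p = 0.0176 and adjusted p = 0.786), from 193 to 257 fragments per library. The spread of Pdk4, 1.43% in WT and 1.71% in TG, was smaller than its counting error of up to 7.20%. Such a small spread is therefore no measure of how the mice vary. Its p exceeded 0.05 with the choroid plexus score as covariate (0.26, limma unadjusted p = 0.0971) and without TG1 and TG2 (0.27, limma unadjusted p = 0.0734), at an estimate that stayed close to the first. In the clock-controlled output list as a whole, 1 of 6 genes was higher at an unadjusted p under 0.05 and 0 were lower, against 3.13% and 2.78% of all genes tested.

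Among the other repressors, Cry1, Cry2, Bhlhe40, Bhlhe41, Timeless and Cipc, 0 of 6 passed even the unadjusted test. All 6 estimates were above 0, as were those of 10398 of the 20952 genes tested. Those of Cipc (0.004) and Bhlhe41 (0.012) were close to 0. The smallest p was that of Bhlhe40, which encodes the E-box repressor DEC1 (log2 fold change 0.19, limma unadjusted p = 0.0673). Bhlhe40 was at 22.9, 24.8 and 25.5 FPKM in WT1 to WT3, compared with 28.6, 25.0 and 29.9 in TG1 to TG3. Over its 6 leave-one-out fits the limma unadjusted p was 0.0168 to 0.2055, under 0.05 in 1 (without TG2). Cry1 and Cry2, the partners of the PER proteins, were at log2 fold changes of 0.06 and 0.05 (limma unadjusted p of 0.629 and 0.477). Of the further activators, Npas2 can stand in for CLOCK in the forebrain. Npas2 was at 6.01, 4.72 and 5.06 in WT1 to WT3, compared with 5.55, 6.47 and 5.84 in TG1 to TG3 (0.18, limma unadjusted p = 0.159). Over its 6 leave-one-out fits the limma unadjusted p was 0.0393 to 0.4008, under 0.05 in 1 (without WT1).

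The relatives of Dbp, Tef and Hlf, and their antagonist Nfil3 had estimates above 0, as had 10398 of the 20952 genes tested. Of these 3, 0 passed the unadjusted test. Hlf was at 26.9, 22.5 and 25.0 FPKM in WT1 to WT3, compared with 26.7, 27.0 and 32.8 in TG1 to TG3 (log2 fold change 0.22, limma unadjusted p = 0.0805). Tef, named after its values were seen because its groups did not overlap, was at 55.8, 52.8 and 55.5 in WT1 to WT3, compared with 60.1, 59.0 and 58.6 in TG1 to TG3 (0.11, limma unadjusted p = 0.0974). Of the ROR activators, which oppose REV-ERB at Arntl, 0 of 3 passed, and Rora had the smallest p. Rora was at 3.13, 2.76 and 2.56 in WT1 to WT3, compared with 3.40, 3.09 and 3.36 in TG1 to TG3 (log2 fold change 0.22, limma unadjusted p = 0.0922). Over its 6 leave-one-out fits the limma unadjusted p was 0.0401 to 0.2029, under 0.05 in 1 (without WT1).

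Of the 9 kinases, ubiquitin ligases and related enzymes that act on PER and CRY proteins, 0 passed the unadjusted test, and 3 estimates were above 0 and 6 below. Csnk1d, casein kinase 1 delta, which phosphorylates PER, was at 33.9, 35.1 and 33.4 FPKM in WT1 to WT3, compared with 37.9, 37.4 and 35.7 in TG1 to TG3 (log2 fold change 0.12, limma unadjusted p = 0.0980). Its relative Csnk1a1, named after its values were seen, was at 34.9, 37.0 and 40.5 in WT1 to WT3, compared with 34.7, 34.0 and 34.3 in TG1 to TG3 (-0.12, limma unadjusted p = 0.130), so that both genes had groups that did not overlap, in opposite directions.

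**Figure D4:**
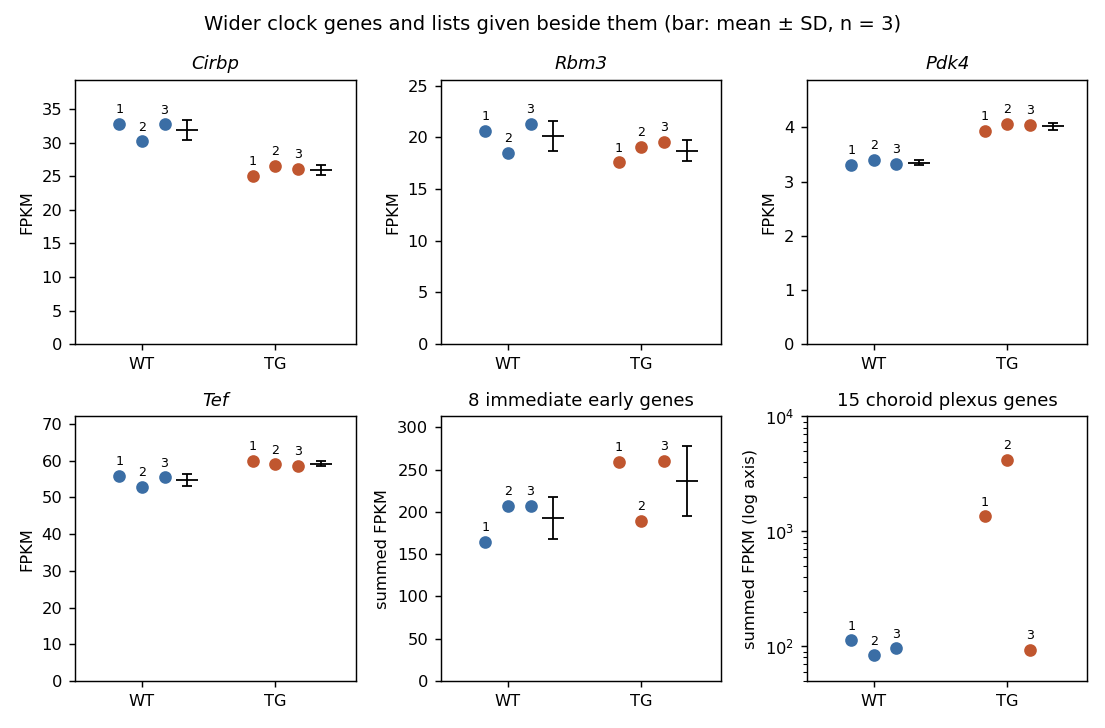
FPKM of 4 genes of the wider clock list, and the summed FPKM of 8 immediate early genes and of 15 choroid plexus genes (the last on a log axis), per library, with the mean ± SD (n = 3) as a black bar on the linear panels. The TG libraries of Cirbp lie below and those of Pdk4 and Tef above all WT libraries, TG2 is within the WT range of the immediate early genes, and TG1 and TG2 are high in choroid plexus genes.

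Per1 and Per2 are also responsive to neuronal activity and to glucocorticoids, so lists of both kinds are given beside them. The 8 immediate early genes summed to 164, 207 and 207 FPKM in WT1 to WT3, compared with 259, 189 and 261 in TG1 to TG3, with none at 0. TG1 and TG3 were above all WT libraries and TG2 lay within their range, while among the TG libraries TG2 was lowest in Per1, TG3 was lowest in Per2 and TG2 was highest in Per3. At an unadjusted p under 0.05, 1 of the 8 was higher, against 3.13% of all genes tested. This gene was Arc, at 46.7, 64.9 and 60.3 in WT1 to WT3, compared with 91.2, 62.9 and 86.7 in TG1 to TG3 (log2 fold change 0.48, limma unadjusted p = 0.0266 and adjusted p = 0.786). Fos was at 7.20, 9.05 and 10.1 in WT1 to WT3, compared with 13.6, 7.90 and 12.2 in TG1 to TG3 (0.33, limma unadjusted p = 0.164). Npas4 was the 1 gene of the list with an estimate below 0, at 4.39, 5.99 and 4.95 in WT1 to WT3, compared with 5.15, 3.20 and 4.31 in TG1 to TG3 (-0.29, limma unadjusted p = 0.174). The 7 glucocorticoid-responsive genes summed to 161.2 to 200.7 FPKM in the WT libraries and 193 to 205 in the TG libraries. Of the 7, 1 was higher at an unadjusted p under 0.05, against 3.13% of all genes tested. This gene was Sgk1, at 20.6, 28.3 and 29.1 in WT1 to WT3, compared with 30.1, 34.2 and 32.8 in TG1 to TG3 (0.33, limma unadjusted p = 0.0453), whereas Fkbp5 had a log2 fold change of 0.01 (limma unadjusted p = 0.948). The part of these genes in the Period values was not tested.

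Genes were also ranked by Pearson correlation, over the 6 libraries, with the mean log2 deviation of Per1, Per2, Per3, Ciart, Nr1d1, Nr1d2 and Dbp. That profile was lowest in WT3 at -0.15 and highest in TG3 at 0.10, with the other 4 libraries between 0.01 and 0.02. It is an average and not the pattern of each member. In Ciart, Nr1d2 and Dbp, WT3 lay above the mean of the 6 libraries, by 0.06, 0.03 and 0.08. Of 13316 genes with a mean of at least 1 FPKM, 314 or 2.36% had r of at least 0.9 and 395 or 2.97% had r of at most -0.9, so a high correlation over 6 libraries was common. The 5 highest were Gm26782, Tjp1, Kcnj10, Sacm1l and Pstpip2, with r from 0.985 to 0.993, and the 5 lowest were Gm20300, Hibadh, Hddc2, Tango2 and Creb3, with r from -0.996 to -0.987. Kcnj10, the inward rectifier potassium channel of astrocytes, was at 25.9, 25.6 and 23.5 FPKM in WT1 to WT3, compared with 25.9, 25.7 and 27.7 in TG1 to TG3. All points share the same 6 libraries, and these values are a description.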

How the data were processed

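Hippocampal RNA of 3 WT and 3 TG mice had been sequenced on an Illumina HiSeq instrument. The labels name a SMARTer library kit and the study's methods a NEBNext one. Per the study's methods, the authors counted reads with HTSeq v0.6.0 and computed the deposited FPKM values from gene length and read counts. GRCm38 is named in the submitters' processing notes. The aligner and the strand setting are not given in the sources used here. The authors' own comparisons were not used.

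FPKM times gene length gave whole reads for 100% of values (tolerance 0.05 reads), from which depths were taken. Groups were compared with limma 3.58.1 (R 4.3.3) on log2(FPKM + 0.1), with a variance trend, over the 20952 genes with a mean of at least 0.1 FPKM, and p-values were adjusted over all of them by Benjamini-Hochberg. A fold change on this scale understates that of low genes. The code was tested on simulated data. The labels do not say whether the mice of a group shared a litter or cage, so p-values measure the spread between these samples. Members and lists were chosen with earlier results of these data known. Named genes were the 9 members, genes overlapping a member, and genes of each wider list at an unadjusted p under 0.05 or, with none, that with the smallest p. Named too were the 5 genes with the highest and the 5 with the lowest correlation with the mean profile, and 2 to 4 examples of each list given beside. Gene positions were matched to GENCODE, and promoters came from RefSeq (GRCm38.p6). Alternatives were 16 planned settings and 1 added after seeing the data.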

Additional observations from a re-analysis of the deposited data

How the results depend on the processing

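The count of clock members higher in TG at an unadjusted p under 0.05, 2 as reported, was 1 with a pseudocount of 1, 1 with values rescaled to TPM, 1 with scaling by the 75th percentile, 1 with a choroid plexus score as covariate, 0 with variances without a trend and 0 with TG1 and TG2 left out together. Leaving out each library in turn gave 0 to 3, with 0 without WT3, TG1 or TG3, 1 without WT1 (Clock) or TG2 (Per1), and 3 without WT2 (the Period genes). The count lower, 0, was 0 to 1 over the same fits, with Ciart passing without TG3. No member passed the adjusted test under any of the 17 alternatives. Rescaled to TPM, 1 member in place of 3, Per2, had groups that did not overlap. Over the 17 alternatives Per1 ranged from 0.21 to 0.39 and had p under 0.05 in 10, Per2 from 0.16 to 0.38 in 6, Ciart from -0.23 to -0.08 in 1, Cirbp from -0.34 to -0.27 in 17 and Pdk4 from 0.21 to 0.29 in 15. Small estimates changed sign: Nr1d1 was -0.067 to 0.134, Nr1d2 -0.0051 to 0.068, Dbp -0.138 to 0.012 and Arntl -0.136 to 0.046 without single libraries, Dbp was 0.023 and Arntl 0.011 with the choroid plexus covariate, and Arntl was 0.000186 in TPM. The cause was not tested. Libraries of the same number share only that number (correlations of deviations of 0.0125, 0.0434 and 0.00314, with WT3 closest to TG1), and the replicate block gave 1 member higher (Per2). Over all genes, the adjusted calls, 2 as reported, were 9 without a variance trend, 6 without TG1, 1 with a minimum of 1 FPKM, 2 with the 75th percentile and 0 otherwise, and unadjusted calls with the choroid plexus covariate were 330 higher and 371 lower, beside 656 and 582. Depth limits Ciart most, with 174 fragments in its thinnest library.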
